A study of Mus musculus with 19 samples.

Results

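The voltage-gated sodium and calcium channels described here are the 33 genes, of 18639 in the deposited table, whose symbols follow the naming pattern of the pore-forming and auxiliary subunits of these channels. They comprise 7 sodium channel alpha subunits (Scn1a, Scn2a, Scn3a, Scn7a, Scn8a and Scn9a among them), 4 sodium channel beta subunits (Scn2b, Scn3b and Scn4b among them), 9 calcium channel alpha1 subunits (Cacna1a to Cacna1h and Cacna1s), 4 alpha2delta subunits (Cacna2d1 to Cacna2d4), 4 calcium channel beta subunits (Cacnb1 to Cacnb4) and 5 genes of the gamma series (Cacng2, Cacng4, Cacng5, Cacng7 and Cacng8). All 33 passed the filter on low values. The members were chosen by name, with earlier results of these data known.

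RNA was sequenced from mouse cochlear cells that had been dissociated and sorted for green fluorescent protein (GFP), with 1 tissue isolate from 1 mouse as 1 sample. Every mouse in every group was heterozygous for a GFP knock-in at the fractalkine receptor gene (CX3CR1 GFP/+), so 1 copy of that gene was disrupted in all groups, the young and unsorted ones included. GFP-positive cells are called macrophages and GFP-negative cells nonmacrophages, as in the labels. The latter mix many cochlear cell types. The names give the sort and not its purity, since neuron markers were higher in the macrophage sort. Whole cochlea gave 4 libraries of macrophages and 4 of nonmacrophages from old mice of 12 to 14 months, and 2 of macrophages and 4 of nonmacrophages from young mice of 1.5 months. Single young libraries came from the macrophages and nonmacrophages of the auditory nerve, from those of the lateral wall, and from unsorted cells, and these allowed no test. Libraries are named below by their group and the number in their label.

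Values are read counts divided by a library factor and are called normalized reads. Old libraries held 50585501 to 71556465 reads in genes and young sorted whole-cochlea libraries 24860362 to 35127475, except young nonmacrophage library 14 with 60230999. The unsorted library held 20628614. Depth and age thus cannot be told apart among macrophages. Of 15 macrophage core markers, 14 were higher in the macrophage sort at either age. The macrophage sort also carried neuronal RNA: of 14 spiral ganglion neuron markers, 12 were higher in macrophages than in nonmacrophages of the old cochlea and 11 in the young. The 2 young macrophage libraries detected fewest genes of the 14 sorted whole-cochlea libraries (11652 and 13532), and 13 of the 33 channel genes had no reads in either of them.

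Voltage-gated sodium channels open within a fraction of a millisecond of membrane depolarization and carry the upstroke of the action potential; each is built of a large pore-forming alpha subunit and small single-span beta subunits. Voltage-gated calcium channels turn depolarization into calcium entry, which triggers transmitter release, contraction and gene expression. Their alpha1 subunit forms the pore, the cytoplasmic beta subunit delivers it to the membrane, and the extracellular alpha2delta subunit sets its surface number and its place at the synapse. In the cochlea, an L-type calcium channel with the Cacna1d pore drives release at the ribbon synapses of inner hair cells, and sodium channels clustered at the initial segments and nodes of spiral ganglion neurons generate and relay the spikes of the auditory nerve. Most genes of the gamma series are better known as auxiliary subunits of AMPA-type glutamate receptors.

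Promoters are shown for 4 members that differed between the sorts at both ages, 3 of them higher in the macrophage sort and Scn7a higher in the nonmacrophage sort. Each run is 300 bases of the RefSeq promoter table on build GRCm38.p6, from 250 bases before to 50 after the annotated start, printed 5′ to 3′ on the gene's own strand with CpG dinucleotides in capitals. Cacna2d3 (chr14:29721815-29722114, minus strand), Scn4b (chr9:45138374-45138673, plus strand), Scn1a (chr2:66440788-66441087, minus strand) and Scn7a (chr2:66784861-66785160, minus strand) read as follows.
Cacna2d3: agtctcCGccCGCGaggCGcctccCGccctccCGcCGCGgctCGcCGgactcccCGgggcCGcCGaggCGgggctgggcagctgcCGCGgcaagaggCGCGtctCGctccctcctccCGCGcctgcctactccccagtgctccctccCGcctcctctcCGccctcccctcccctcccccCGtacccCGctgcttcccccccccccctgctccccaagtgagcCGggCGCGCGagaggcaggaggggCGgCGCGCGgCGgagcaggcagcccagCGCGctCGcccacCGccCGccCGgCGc
Scn4b: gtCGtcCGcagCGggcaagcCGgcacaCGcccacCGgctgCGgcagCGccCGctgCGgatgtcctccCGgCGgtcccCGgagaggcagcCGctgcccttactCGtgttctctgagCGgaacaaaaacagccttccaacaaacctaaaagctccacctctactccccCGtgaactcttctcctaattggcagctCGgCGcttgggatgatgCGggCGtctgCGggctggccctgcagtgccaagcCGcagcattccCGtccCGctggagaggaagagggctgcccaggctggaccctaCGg
Scn1a: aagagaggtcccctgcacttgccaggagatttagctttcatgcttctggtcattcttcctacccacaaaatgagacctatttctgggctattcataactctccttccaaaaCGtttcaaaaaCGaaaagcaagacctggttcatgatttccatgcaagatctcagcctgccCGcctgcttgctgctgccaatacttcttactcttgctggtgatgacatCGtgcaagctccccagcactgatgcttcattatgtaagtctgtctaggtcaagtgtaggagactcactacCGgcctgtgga
Scn7a: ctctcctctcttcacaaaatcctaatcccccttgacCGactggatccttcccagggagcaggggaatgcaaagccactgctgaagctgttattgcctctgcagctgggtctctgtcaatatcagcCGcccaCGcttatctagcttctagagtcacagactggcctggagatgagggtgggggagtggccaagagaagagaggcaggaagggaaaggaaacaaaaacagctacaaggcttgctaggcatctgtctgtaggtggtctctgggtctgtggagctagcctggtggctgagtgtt
The Cacna2d3 and Scn4b runs hold 41 and 26 CpG dinucleotides, and those of Scn1a and Scn7a hold 5 and 3, so genes with dense and with sparse CpG promoters were among those higher in the macrophage sort. The table held 35 promoters of 24 of the 33 members, with a median of 11 CpG dinucleotides against 7 over all 32851 promoters of the table. The GC box GGGCGG, searched on both strands, was in 16 of the 35 (45.7%) against 35.7% of all. TATAAA was in 2 of 35 against 13.6% of all, and GAGGAAGT, a sequence bound by the macrophage factor PU.1, was in 0 of 35 against 3.20% of all. These matches are descriptions of the sequence only.

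**Figure D1:**
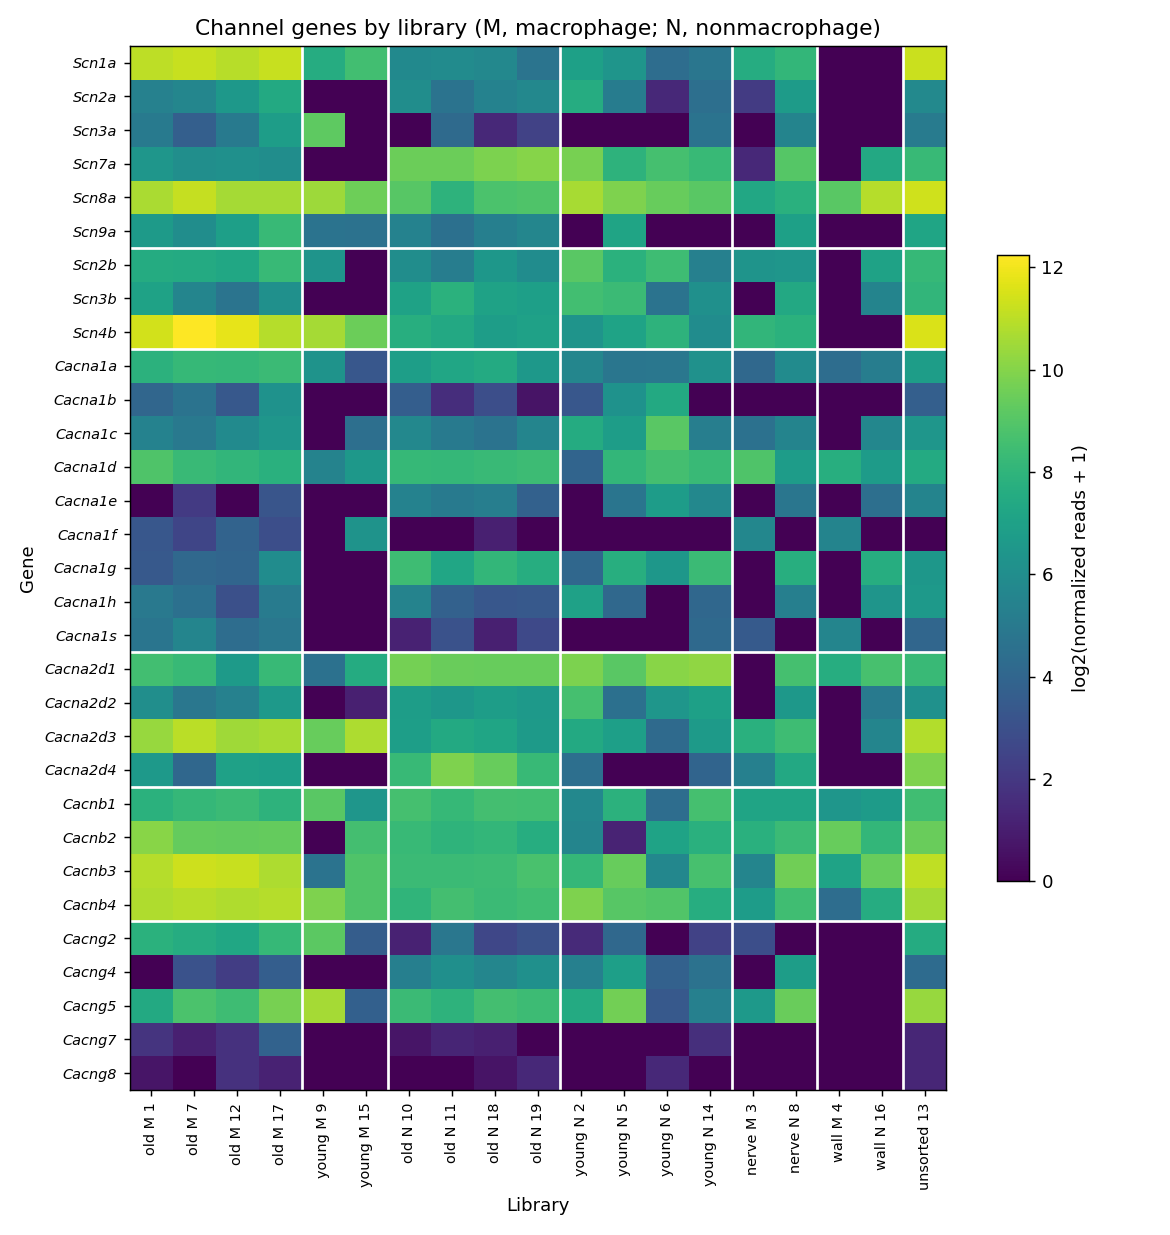
Level of each of 31 channel genes (rows, ordered by subunit family) in each of the 19 libraries (columns), as log2(normalized reads + 1); white lines separate the families and the groups. Genes with no reads in young macrophages, such as Scn7a and Cacna1g, appear as dark cells in both of those columns.

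Per kilobase of exon, abundant members in old macrophages were Scn4b at 654 ± 255 normalized reads per kb, Cacnb3 at 531 ± 100, Cacnb4 at 207 ± 10.5, Scn1a at 198 ± 18.9 and Cacna2d3 at 184 ± 35.2 (SD, n = 4 each). Scn4b and Cacnb3 overlapped within their spread, as did Cacnb4, Scn1a and Cacna2d3. In old nonmacrophages, abundant members were Scn7a at 116 ± 21.8 per kb, Cacnb3 at 87.3 ± 11.9, Cacng5 at 84 ± 15.8 and Cacnb1 at 79.4 ± 9.91. Among the pore-forming genes the order thus differed between the sorts: Scn1a and Scn8a (112 ± 22.4 per kb) led in old macrophages, Scn7a in old nonmacrophages.

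In the old cochlea, 7 of the 33 channel genes were higher in macrophages than in nonmacrophages and 3 were lower. Over all 18441 genes tested, 9.25% were called higher and 9.36% lower, by limma with Benjamini-Hochberg adjustment at 0.05. The higher genes were the pore subunits Scn1a, Scn8a and Cacna1s, and the auxiliary subunits Scn4b, Cacna2d3, Cacnb4 and Cacng2; the lower ones were Scn7a, Cacna1g and Cacng4. The median log2 difference of the members was 1.10, against -0.19 over all genes tested.

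Scn1a (chr2:66270778-66440840, minus strand, mm10), a main pore of fast-spiking neurons, had 2119, 2406, 1953 and 2355 normalized reads in old macrophage libraries 1, 7, 12 and 17. In old nonmacrophage libraries 10, 11, 18 and 19 it had 54.7, 58.5, 51.2 and 25.2. The groups were far apart, every macrophage library lying well above every nonmacrophage library, and the log2 difference was 5.58 (SE 0.62, adjusted p = 5.6e-05). Scn8a, the pore found at mature nodes, had 1644, 2285, 1535 and 1574 in old macrophages and 531, 239, 441 and 469 in old nonmacrophages. These groups did not overlap either, and the difference was smaller, at 2.10 (SE 0.38, adjusted p = 0.0020). Scn7a (chr2:66673425-66784914, minus strand), an atypical family member that senses extracellular sodium and is known from glia, ran the other way. It had 84.7, 65.3, 69.6 and 64.0 normalized reads in old macrophages and 731, 710, 900 and 1052 in old nonmacrophages. All 4 nonmacrophage libraries lay above all 4 macrophage libraries, with a log2 difference of -3.55 (SE 0.51, adjusted p = 0.00036).

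Of the sodium channel beta subunits, Scn4b (chr9:45138395-45154152, plus strand), the partner linked to resurgent current, was called higher. It had 2716, 4863, 3558 and 1891 normalized reads in old macrophages against 202, 166, 111 and 129 in old nonmacrophages. The groups did not overlap, and the difference was 4.36 on the log2 scale (SE 0.50, adjusted p = 7.1e-05). Scn2b had 206 ± 63.8 against 62.3 ± 21.8 and Scn3b 68.2 ± 46.4 against 153 ± 50.1 (SD, n = 4 each). Neither passed in the fit over all 14 libraries, with adjusted p = 0.35 and 0.33.

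Among calcium channel pores, Cacna1g, a low-threshold T-type channel, was lower in old macrophages, with 9.62, 16.3, 15.2 and 61.6 normalized reads against 346, 152, 276 and 199. The groups did not overlap, and the log2 difference was -3.49 (SE 0.89, adjusted p = 0.015); without old macrophage library 1 it was -3.16 and without old nonmacrophage library 10 it was -3.29, each with adjusted p = 0.051. Cacna1s, the voltage sensor of skeletal muscle, had 25.7, 46.8, 19.8 and 28 against 1.23, 7.57, 1.11 and 5.49, and passed narrowly (2.88, SE 0.90, adjusted p = 0.041). It no longer passed when any 1 of the 4 old macrophage libraries, or old nonmacrophage library 10, 18 or 19, was left out (log2 2.57 to 3.11, adjusted p = 0.061 to 0.12), nor in edgeR (adjusted p = 0.16) or DESeq2. Of its exon bases, 1309 overlap the antisense gene Gm37759; whether strand was used in counting is not given in the sources used here, so reads of such a pair cannot be told apart. Cacna1d, the pore of inner hair cell channels, had 319 ± 111 in the macrophage sort and 310 ± 20.2 in the other (SD, 4 libraries each, n = 4; adjusted p = 0.99). Cacna1a, a presynaptic pore, had 283 ± 37.8 against 135 ± 39.2 and did not pass (adjusted p = 0.29).

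The alpha2delta subunits were split between the sorts. Cacna2d3 (chr14:28904943-29721864, minus strand), which normal hearing in mice requires, had 1316, 2031, 1473 and 1585 normalized reads in old macrophages and 117, 171, 145 and 101 in old nonmacrophages. The groups were apart by 3.59 on the log2 scale (SE 0.63, adjusted p = 0.0015). Cacna2d1, a target of gabapentin, had 270 ± 116 against 715 ± 72.8, Cacna2d2 57.8 ± 29.8 against 102 ± 11.7, and Cacna2d4, known from photoreceptor synapses, 89.3 ± 51.3 against 554 ± 314 (SD, n = 4 each). The last 3 had lower means in macrophages but did not pass (adjusted p = 0.10, 0.49 and 0.10).

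Of the cytoplasmic beta subunits, Cacnb4 had 1777, 1958, 1770 and 1908 normalized reads in old macrophages and 255, 383, 327 and 363 in old nonmacrophages. It was among the most even members across libraries of a group, and the difference was 2.49 (SE 0.43, adjusted p = 0.0013); 16.0% of its exon bases overlap the antisense gene A430018G15Rik. Cacnb3 had 1861, 2565, 2367 and 1719 against 322, 325, 333 and 421, also without overlap, yet it missed the threshold in the fit over 14 libraries (2.59, SE 0.85, adjusted p = 0.051). Cacnb2 had 754 ± 219 against 255 ± 45.4 (adjusted p = 0.60) and Cacnb1 269 ± 46.8 against 360 ± 44.9 (adjusted p = 0.81; SD, n = 4 each). In the gamma series, Cacng2 (stargazin) had 223, 190.5, 156 and 298 in old macrophages and 1.23, 28.2, 5.00 and 7.13 in old nonmacrophages, a log2 difference of 4.82 (SE 1.20, adjusted p = 0.014). Cacng4 had 0, 7.62, 3.69 and 11.6 against 38.1, 66.8, 48.4 and 69.1 (-3.54, SE 0.86, adjusted p = 0.012), and it did not pass in edgeR (adjusted p = 0.069). Cacng5 had 456 ± 289 against 322 ± 60.7 (adjusted p = 0.93).

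The spread that enters these tests is shared with the young libraries. Fitted on the 8 old libraries alone, the same log2 differences gave 16 members higher and 8 lower, where 24.9% of 18272 genes were called higher and 33.4% lower. Among those added on the higher side were Scn3a, Scn9a, Scn2b, Cacna1a, Cacna1b, Cacna1f, Cacnb2 and Cacnb3 (adjusted p = 6.3e-07 for Cacnb3), and on the lower side Scn3b, Cacna1e, Cacna2d1 and Cacna2d4 (adjusted p = 0.0036 for Cacna2d1). The 24 calls held all 10 of the fit over 14 libraries.

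**Figure D2:**
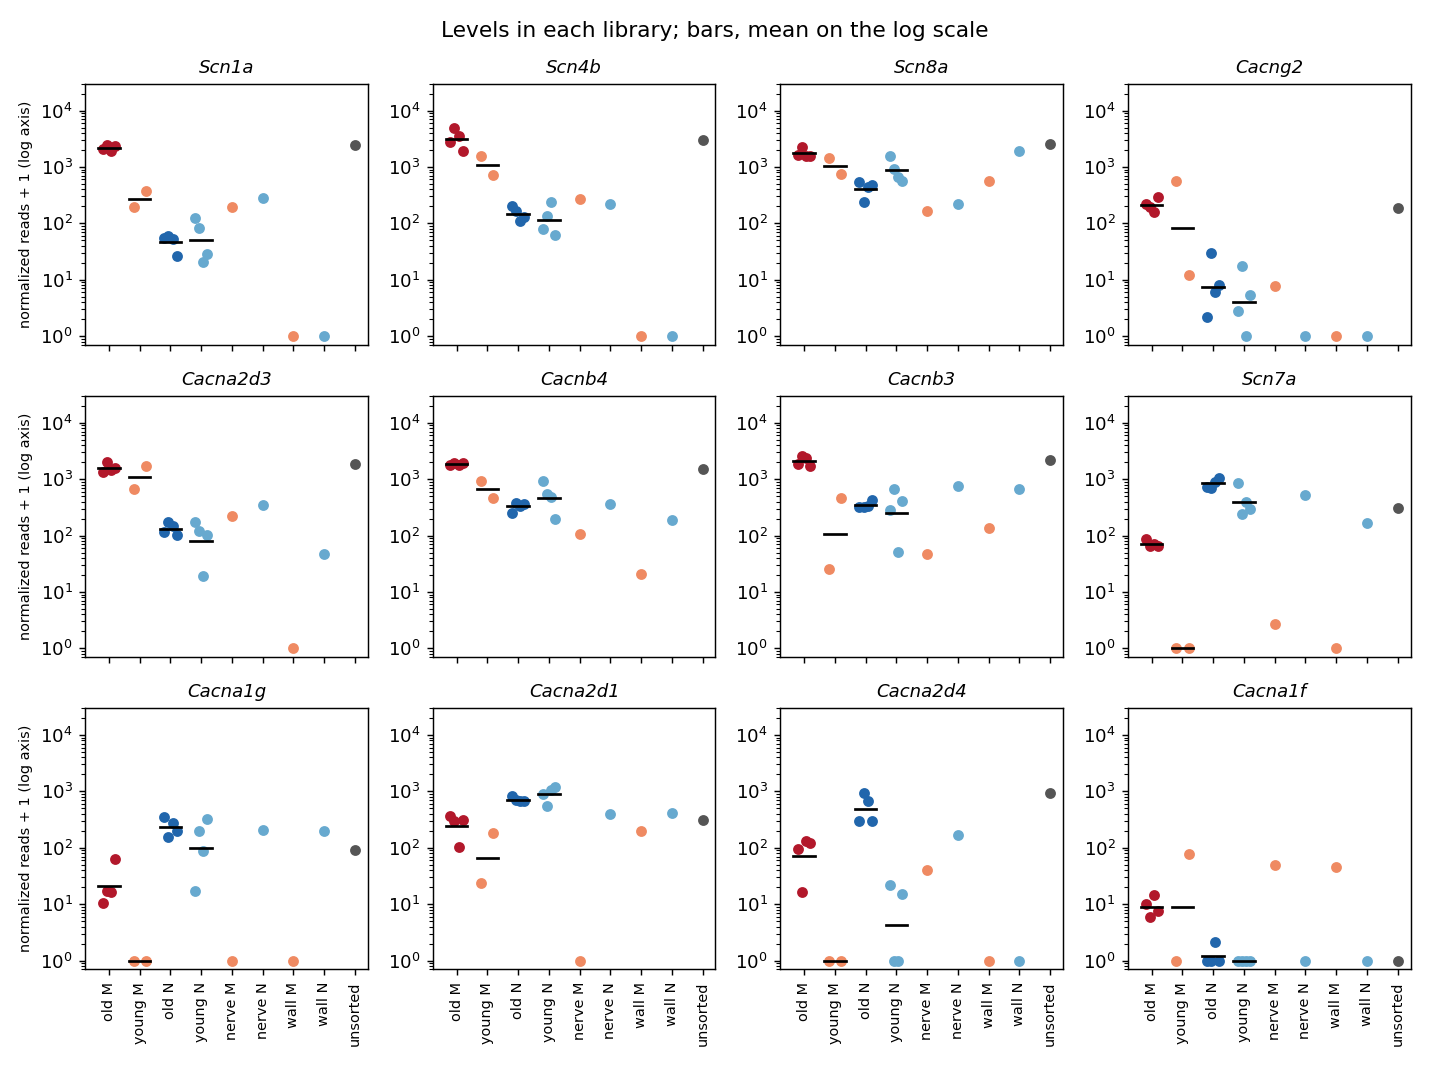
Normalized reads + 1 (log axis) of 12 channel genes in each library, by group (M, macrophage; N, nonmacrophage); points are libraries and bars are means on the log scale for groups of 2 or more. Scn1a, Scn4b, Cacna2d3 and Cacnb4 separate old macrophages from old nonmacrophages without overlap, Scn7a and Cacna1g do so in the other direction, and Scn1a and Scn4b lie at the foot of the plot in the lateral wall.

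Neuron markers were higher in old macrophages, as were the 7 channel genes called higher. Scn7a, Cacna1g and Cacng4 went the other way. The 14 neuron markers summed to 370553 to 526867 normalized reads per library in old macrophages and 15133 to 24078 in old nonmacrophages, and none was at 0 in either group. Snap25, a synaptic vesicle fusion protein, had 140741 to 155783 in old macrophages against 3190 to 6325 in old nonmacrophages, and its log2 difference of 5.04 was of the size of that of Scn1a. Nefm and Nefh, axonal neurofilament subunits, differed by 4.23 and 4.34. The Schwann cell and myelin markers moved with Scn7a, 8 of 11 lower in old macrophages and summing to 149788 to 408910 against 2828674 to 3960626. What part neurons or glia in the sort had in the channel levels was not tested, and in bulk RNA fewer cells of a type and less RNA per cell cannot be told apart.

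In the young cochlea, 4 of the 33 members were higher in macrophages (9.18% of all genes tested) and 10 were lower (22.3% of all). Scn1a, Scn4b, Cacna2d3 and Cacng2 were higher, all 4 of which were among the 7 higher in the old. Scn7a, Cacna1g and Cacng4 were lower at both ages, all 3 of the old and 3 of the 10 of the young; the other 7 were Scn3b, Cacna2d2, Cacna2d1, Cacna1c, Scn2a, Scn2b and Cacna1e. The members' median log2 difference was -1.12 (-1.05 with genes at 0 set at 3 reads), against -0.61 over all genes. The lower calls thus sit on a background in which many genes were lower in young macrophages.

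Scn1a had 191 and 374 normalized reads in young macrophage libraries 9 and 15, and 124, 83.1, 19.6 and 27.3 in young nonmacrophage libraries 2, 5, 6 and 14. The groups were apart, but by less than in the old (2.43, SE 0.76, adjusted p = 0.027); without young macrophage library 15 the difference was 1.95 (adjusted p = 0.087), and without young nonmacrophage library 14 it was 2.16 (adjusted p = 0.054). Scn4b had 1566 and 721 against 80.0, 136, 238 and 61.0 (3.23, SE 0.61, adjusted p = 0.0014). Cacna2d3 had 681 and 1716 against 172, 118, 17.9 and 101 (3.77, SE 0.77, adjusted p = 0.0024). Both were above all nonmacrophage libraries in each macrophage library. Cacng2 had 574 and 11.3, so that its call (4.40, adjusted p = 0.037) rested on young macrophage library 9; without that library the difference was 1.62 (adjusted p = 0.47). Cacng2 also lost the call without any of old macrophage libraries 1, 7 and 12, old nonmacrophage libraries 18 and 19, and young nonmacrophage libraries 2, 6 and 14 (adjusted p = 0.051 to 0.076).

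Scn7a had no reads in either young macrophage library and 864, 242, 400 and 300 normalized reads in young nonmacrophages. Set against 3 reads per library, its mean was at least 104-fold higher in nonmacrophages (adjusted p = 3.7e-07). Schwann cell and myelin markers were lower in young macrophages in 11 of 11 (median log2 difference -3.75), with sums of 96180 and 99981 against 1796433 to 3310017, and their part in the level of Scn7a was not tested. Scn3b, a beta subunit of sensory and developing neurons, and Cacna1g also had none, with means of 198 ± 176 and 159 ± 137 in nonmacrophages (SD, n = 4), at least 45.7-fold and 36.7-fold higher. Without young nonmacrophage library 14 the Cacna1g bound was 23.6-fold. Cacng4 and Scn2a, likewise with no reads, were at least 11.4-fold and 14.3-fold higher in nonmacrophages. These bounds leaned on 1 library each: they were 5.83-fold for Cacng4 without young nonmacrophage library 5 and 4.36-fold for Scn2a without library 2. Cacna2d1 had 22.8 and 185 in young macrophages and 900, 545, 1078 and 1185 in young nonmacrophages (-3.74, SE 0.75, adjusted p = 0.0021), without overlap. Cacna2d2 had 0 and 1.13 against 395, 21.8, 86.5 and 123 (adjusted p = 0.00039). Cacna1c, the widespread L-type pore, had 0 and 21.4 against 183, 110, 548 and 36.9, and its difference of -4.92 (adjusted p = 0.0080) was -2.68 without young macrophage library 9 (adjusted p = 0.11). Scn2b and Cacna1e overlapped between the sorts: Scn2b lost its call without young macrophage library 15 (-1.36, adjusted p = 0.34) and without young nonmacrophage library 2 or 6 (each adjusted p = 0.054), and Cacna1e, with a main adjusted p = 0.048, lost it without any 1 of 12 libraries. Scn2a was no longer called without young macrophage library 9 (adjusted p = 0.058).

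Members at 100 normalized reads or more that were not called in the young included Scn8a (1082 ± 483 in macrophages, n = 2, against 941 ± 461 in nonmacrophages, n = 4, SD), Cacnb4 (701 ± 324 against 540 ± 307) and Cacnb3 (243 ± 309 against 357 ± 262). Cacng5, Cacnb1, Scn3a, Cacna1d and Cacnb2 were of this kind too, and in Scn3a the whole macrophage level came from library 9 (593 against 0 in library 15). These young calls depend on the spread shared with the old libraries. Fitted on the 6 young libraries alone, 0 members were higher and 3 lower (Scn7a, Scn3b and Cacna1g), and with a weight per library, which put each young macrophage library at 0.067, 0 were higher and 1 lower (Scn7a).

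**Figure D3:**
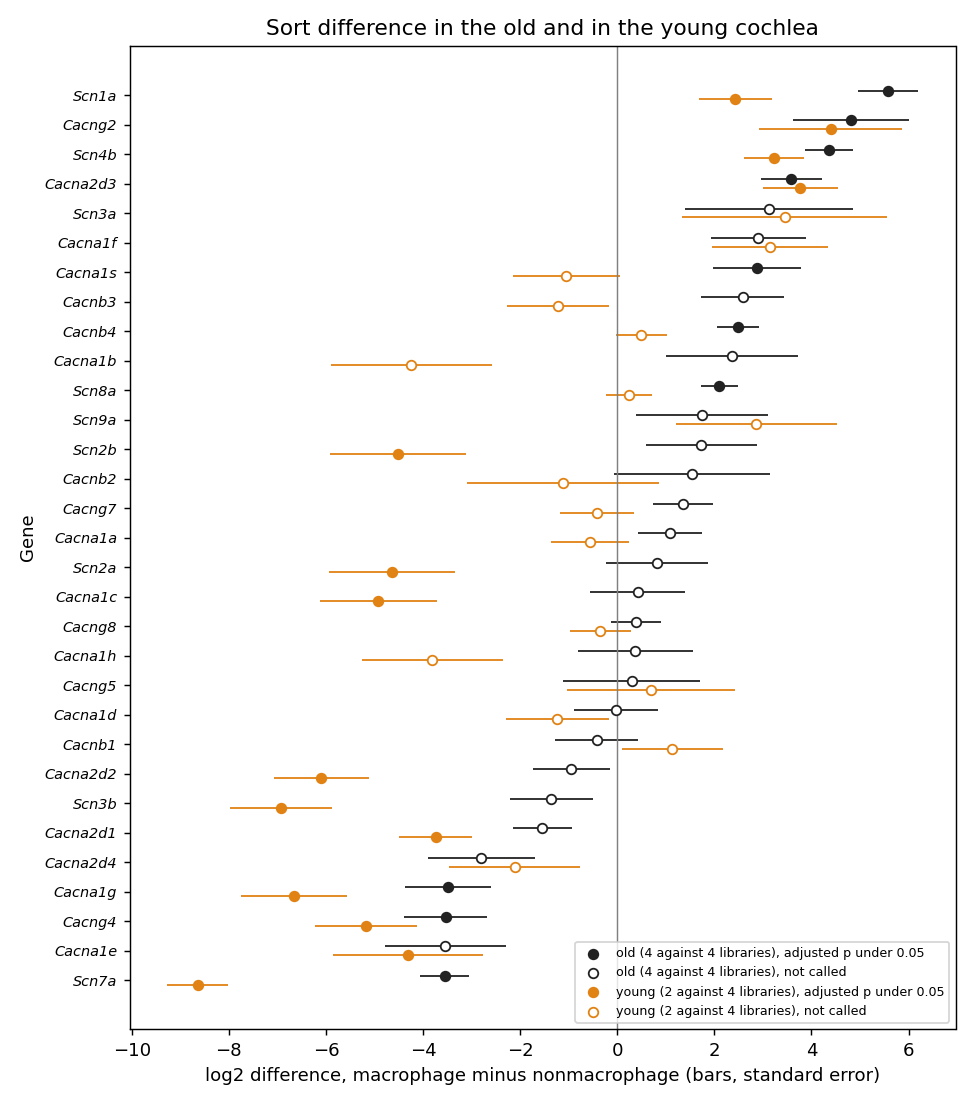
Log2 difference of macrophages over nonmacrophages for 31 channel genes in the old (black, 4 against 4 libraries) and the young cochlea (orange, 2 against 4); bars are standard errors and filled points passed the adjusted p of 0.05. Scn1a, Scn4b, Cacna2d3 and Cacng2 lie to the right at both ages, and Scn7a, Cacna1g and Cacng4 to the left at both.

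The log2 difference of macrophages minus nonmacrophages was higher in the old than in the young for 3 of the 33 members and lower for 0. The 3 were Scn7a, Scn3b and Cacna2d2, each with lower means in macrophages at both ages, by less in the old. Over all genes 6.98% and 0.954% were called higher and lower. At an unadjusted p under 0.05 the counts were 15 and 0, in edgeR 6 and 0, and in DESeq2 15 and 0. For Scn7a the interaction was 5.09 (SE 0.80, adjusted p = 0.0011), for Scn3b 5.57 (SE 1.36, adjusted p = 0.021) and for Cacna2d2 5.15 (SE 1.27, adjusted p = 0.022), all on the log2 scale. All 3 had 0 to 1.13 normalized reads in young macrophages and 24.9 to 132 in old ones, so each of the 3 rests on reads at the detection limit of the 2 young libraries. Scn1a (3.14, adjusted p = 0.070) and Scn8a (1.86, adjusted p = 0.084) were close to the threshold without passing. With quantile normalization, library weights or a pseudocount of 10 none of the 3 kept its call (adjusted p = 0.10 to 0.71). Leaving out libraries moved the count to 7 without young macrophage library 9, 9 without library 15, and 5, 7 and 9 without young nonmacrophage libraries 2, 6 and 14; Cacna2d2 had an adjusted p of 0.050 without young macrophage library 9 or old macrophage library 17, on the far side of the threshold.

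Between ages within the macrophage sort, 14 members were higher in the old and 0 lower, where 24.1% of all genes were called higher and 5.57% lower. They were the sodium channel genes Scn1a, Scn2a, Scn7a, Scn2b and Scn3b, the calcium channel pores Cacna1a, Cacna1c, Cacna1g, Cacna1h and Cacna1s, and the auxiliary Cacna2d2, Cacna2d4, Cacnb3 and Cacnb4. The members' median log2 difference was 2.26, against 0.88 over all genes, and the sign was positive in all 33 in this fit. Genes as a whole thus had higher values in old macrophages. The sign is that of log means, and the share of all genes with a positive sign is not given. Among whole-cochlea macrophages, Scn3a, Cacng2, Cacng5 and Cacnb1 were highest in young library 9 and lowest in young library 15. Cacng5, for example, had 1552 and 12.4 there, against 174 to 856 in the old. Quantile normalization took the median of all genes from 0.88 to -0.07 and left 3 members higher and 1 lower. Over all genes it called 2292 higher and 2277 lower. Without adjustment, 19 members were higher and 0 lower at p under 0.05, and edgeR called 10 higher and 0 lower. DESeq2 called 17 higher and 0 lower.

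Scn1a rose from 191 and 374 normalized reads in young macrophages to 1953 to 2406 in old ones, 3.04 on the log2 scale (SE 0.76, adjusted p = 0.0098). Cacnb3 rose from 24.6 and 462 to 1719 to 2565 (4.27, SE 1.05, adjusted p = 0.0092), and without young macrophage library 9 the difference was 2.18 (adjusted p = 0.11). Cacna1a rose from 77.2 and 9.03 to 235 to 327 (3.33, SE 0.81, adjusted p = 0.0084). In these 3 genes no young library reached the lowest old one. Cacnb4 rose from 930 and 472 to 1770 to 1958 by 1.48 (adjusted p = 0.048), and lost that call without any 1 library other than young macrophage library 9 or young nonmacrophage library 2 or 14. Genes with no reads in either young library rose to at least 20.6-fold the level of 3 reads for Scn2a and Cacna2d4, 16.4-fold for Scn7a, 15.8-fold for Scn3b, 6.95-fold for Cacna1s, 5.94-fold for Cacna1g and 5.34-fold for Cacna1h. The Cacna1g bound was 3.17-fold without old macrophage library 17. Cacna1h lost its call without either young macrophage library (adjusted p = 0.12 and 0.077), without old macrophage library 1, 7 or 17, and without old nonmacrophage library 11 (adjusted p = 0.051 to 0.075). Scn2b lost it without young macrophage library 15 (1.33, adjusted p = 0.35) or any of the 4 old macrophage libraries (adjusted p = 0.051 to 0.063). Cacna1c lost it without young macrophage library 9 (1.19, adjusted p = 0.52), any of the 8 old libraries or young nonmacrophage library 5 (adjusted p = 0.055 to 0.097). Cacna2d2 went from 0 and 1.13 to 28.3 to 95.7 (5.19, adjusted p = 0.0018).

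Abundant members without a call between ages included Scn4b (3257 ± 1269 in old, n = 4, and 1144 ± 597 in young, n = 2, SD), Scn8a (1759 ± 353 and 1082 ± 483), Cacna2d3 (1601 ± 307 and 1199 ± 732), Cacnb2 (754 ± 219 and 194 ± 275) and Cacng5 (456 ± 289 and 782 ± 1088). Cacna2d1, Cacna1d, Scn9a, Cacng2, Cacnb1 and Scn3a, at lower levels, were not called either. Neuron markers were called higher in old macrophages in 3 of 14 and lower in 0, with sums of 169571 and 356869 in the young and 370553 to 526867 in the old. Schwann cell and myelin markers were higher in 7 of 11 and lower in 0, with sums of 96180 and 99981 in the young. Their part in the channel differences was not tested. With library weights 0 members were called.

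Between ages within the nonmacrophage sort, 1 member was higher in the old and 0 lower, where 1.64% of all genes were called higher and 0.0813% lower. At an unadjusted p under 0.05, 4 were higher and 1 lower; DESeq2 called 2 each way, and edgeR 0 each way. Cacna2d4 (chr6:119236526-119352407, plus strand) had 299.5, 948, 667 and 302 normalized reads in old nonmacrophages 10, 11, 18 and 19 and 21.3, 0, 0 and 14.4 in young nonmacrophages 2, 5, 6 and 14. The groups did not overlap, with means of 554 ± 314 and 8.94 ± 10.7 (SD, n = 4 each) and a log2 difference of 6.83 (SE 1.10, adjusted p = 0.0068). Against young library 14 alone, which has the depth of the old libraries, it was 4.99 (adjusted p = 0.26), and edgeR gave an adjusted p of 0.085. Hair cell markers moved in the same direction: 6 of 12 were higher in old nonmacrophages and 0 lower, with sums of 3089 to 9049 against 482 to 1273, and Otof, the calcium sensor of hair cell release, had 321 to 2580 against 0 to 73.4. Old library 11 held the highest value of Cacna2d4 and of Otof. Of the single young libraries, Cacna2d4 had 945 in the unsorted one, 165 in nerve nonmacrophages and 39.6 in nerve macrophages. It had no reads in either lateral wall library. Its level was therefore not low in every young library. The part of hair cell RNA in the level of Cacna2d4 was not tested.

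The other abundant members did not pass between ages in nonmacrophages. Scn8a had 420 ± 126 in the old and 941 ± 461 in the young without overlap (-1.10, SE 0.38, adjusted p = 0.13), and it passed without young library 14 (-1.31, adjusted p = 0.035). Cacna1a had 135 ± 39.2 and 43.9 ± 21.5, also without overlap (adjusted p = 0.16), and passed without young macrophage library 15 (1.67, adjusted p = 0.047). Scn7a had 848 ± 160 and 452 ± 283, Cacna2d1 715 ± 72.8 and 927 ± 281, and Scn4b 152 ± 40.5 and 129 ± 79.6 (SD, n = 4 each), and all 3 pairs overlapped between ages. Without young nonmacrophage library 14 the count of called members was 5, and without young nonmacrophage library 5 or young macrophage library 15 it was 2.

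The auditory nerve holds spiral ganglion neurons and their glia, and the lateral wall the fibrocytes, vessels and stria vascularis. This pair of tissues differed in glia as well as in neurons. Schwann cell and myelin markers summed to 3244856 in nerve nonmacrophages and 90507 in wall nonmacrophages. In the young nonmacrophage libraries, 9 members were at least 4-fold higher in the nerve (11.3% of all genes with reads) and 3 at least 4-fold lower (8.33%), on the value + 1 scale. Those 9 were Scn1a, Scn2a, Scn3a, Scn9a, Scn4b, Cacna2d3, Cacna2d4, Cacng4 and Cacng5. Scn1a had 278 normalized reads in the nerve and none in the wall, at least 60.7-fold higher against a floor of 3 reads, and Scn4b had 224 and none, at least 48.8-fold higher. Cacng5, an AMPA receptor partner, had 695 and none, at least 152-fold higher, and Cacna2d3 had 350 and 45.9, a ratio of 7.62 (exact 95% interval 5.21 to 11.5, counting error only). Among those higher in the wall, Scn8a had 1905 in the wall and 215 in the nerve (nerve over wall 0.113, interval 0.095 to 0.134).

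Scn8a was thus abundant in a library with low neuron markers. The 14 neuron markers summed to 1792 in the wall nonmacrophages, with 1 at 0, against 33673 in the nerve nonmacrophages, and Snap25 stood at 174 and 13534. Members at near equal level in the 2 tissues were the pores Cacna1g (206 in nerve and 197 in wall, ratio 1.04, interval 0.817 to 1.33), Cacna1d (108 and 104), and the alpha2delta subunit Cacna2d1 (401 and 413, ratio 0.972, interval 0.820 to 1.15). The cytoplasmic subunits Cacnb1, Cacnb2 and Cacnb3 also had intervals that stayed below 2-fold, with Cacnb3 at 765 and 668. Scn7a was 3.18-fold higher in the nerve (526 and 165, interval 2.56 to 3.98).

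**Figure D4:**
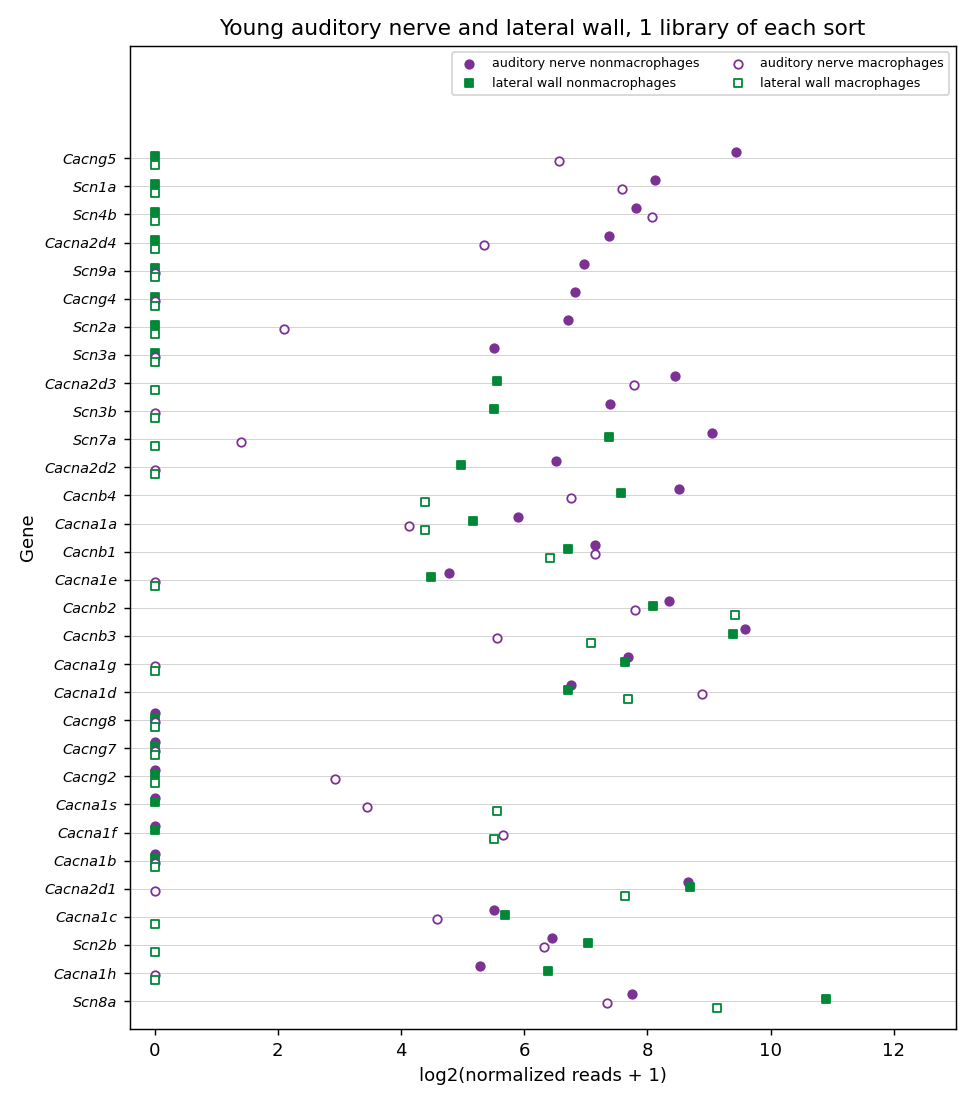
Level of 31 channel genes as log2(normalized reads + 1) in the young auditory nerve (purple circles) and lateral wall (green squares), nonmacrophages filled and macrophages open, 1 library each, ordered from nerve-high to wall-high in nonmacrophages. Scn1a, Scn4b and Cacng5 have reads in both nerve libraries and none in the wall, and Cacna1f has reads in both macrophage libraries only.

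On the value + 1 scale, macrophages of the auditory nerve were at least 4-fold higher than nonmacrophages in 4 members (11.7% of all genes). They were at least 4-fold lower in 14 (25% of all). Within the lateral wall 2 were higher (8.72%) and 13 lower (21%) on that scale. Against a floor of 3 reads, the bound in the nerve was only 2.36-fold for Cacna1s and 1.58-fold for Cacng2. Both had no reads in nerve nonmacrophages. Cacna1f, an L-type pore best known from the retina, was among the higher ones in both tissues, with 49.6 in nerve macrophages and 44.4 in wall macrophages and no reads in either nonmacrophage library, at least 11.8-fold and 9.68-fold higher. In whole cochlea it had 9.0, 4.9, 13.8 and 6.7 in old macrophages, 0 and 77.9 in young macrophages, no reads in the 4 young nonmacrophage libraries and in the unsorted one, and 1.11 in 1 of 4 old nonmacrophage libraries. Cacna1f thus had reads in 7 of the 8 macrophage libraries and in 1 of the 10 nonmacrophage libraries, at low level; the sort difference in the old cochlea had an adjusted p of 0.055 over 14 libraries and 7e-04 over 8. Cacna1s had 9.91 and 45.9 in nerve and wall macrophages and none in the nonmacrophages. Cacna1d had 472 in nerve macrophages against 108 in nonmacrophages (ratio 4.39, interval 3.40 to 5.72) and 205 against 104 in the wall (1.97, interval 1.46 to 2.68), whereas in the young whole cochlea it had 43.9 and 90.3 in macrophages against 14.2 to 383 in nonmacrophages. Part of Cacna1d, 4.67% of its exon bases, overlaps Chdh on the other strand.

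Scn1a, Scn4b, Cacna2d3, Scn8a and Cacnb4, called higher in old macrophages of whole cochlea, were not clearly higher in macrophages of the young nerve. Scn1a had 192 in nerve macrophages against 278 in nerve nonmacrophages (ratio 0.689, interval 0.543 to 0.870), Scn4b 268 against 224 (1.20, interval 0.955 to 1.50) and Cacna2d3 218 against 350 (0.624, interval 0.501 to 0.773). Scn8a had 162 against 215 (0.752, interval 0.577 to 0.975). Cacnb4 was lower in nerve macrophages, with 107 against 365 (0.294, interval 0.221 to 0.387), and so was Cacnb3, which had missed the threshold in the old, with 46.3 against 765 (0.060, interval 0.040 to 0.088). Cacng2 had 6.61 in nerve macrophages and none in nerve nonmacrophages. The neuron markers had sums of 37987 in nerve macrophages and 33673 in nerve nonmacrophages. In wall macrophages, where the neuron markers summed to 75 with 7 of 14 at 0, Scn1a, Scn4b, Cacna2d3 and Cacng2 had no reads, and 22 of the 33 members had none. Members with more than 100 normalized reads in wall macrophages included Cacnb2 (686), Scn8a (562), Cacna1d (205), Cacna2d1 (198) and Cacnb3 (135). When nerve and wall macrophages replaced the 2 young whole-cochlea macrophage libraries, differences from whole-cochlea nonmacrophages turned negative for Scn1a, Scn4b, Cacna2d3 and Cacng2. None of them was called. Tissue and sort cannot be told apart in this setting, and wall macrophages had no reads of these genes.

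The unsorted young library detected 32 of the 33 members, all but Cacna1f. Against the mean of the young nonmacrophages, 10 members were at least 4-fold higher in it (10.7% of all genes) and 1, Cacna1b, at least 4-fold lower (5.04% of all). Its level lay within the range of old macrophages for 16 members, above it for 11 and below it for 6, and it lay above both young macrophage libraries for 27. The share over all genes is not given for these ranges. This library detected 17468 genes, against 11652 and 13532 in the young macrophage libraries. Scn1a stood at 2462, Scn4b at 2994, Cacna2d3 at 1849, Cacnb3 at 2165 and Cacng2 at 183, each at least 4-fold above the mean of the young nonmacrophages. Cacnb4 stood at 1540, 2.85-fold above that mean on the value + 1 scale. Scn7a at 301 lay within the range of the young nonmacrophages and above every macrophage library of whole cochlea, whereas Cacna2d1 at 312 lay within the range of old macrophages and below all 4 young nonmacrophage libraries. The neuron markers of this library summed to 278210, and the macrophage core markers to 36653 against 224026 to 381527 in old macrophages. Cacna2d4 had 945, close to the highest old nonmacrophage library, and the hair cell markers summed to 5943. That sum was also 5747 in nerve macrophages and 4250 in wall macrophages, with 5 and 8 of the 12 markers at 0. Cacna2d4 had 39.6 and no reads in those libraries.

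Genes that act with these channels were counted from lists of partners, beside which 9.25% of all genes were higher and 9.36% lower between the old sorts, and 9.18% and 22.3% between the young sorts. Of 15 genes that anchor channels at initial segments and nodes, 4 were higher and 1 lower in old macrophages than in old nonmacrophages, with Ank1 at 3.11 (SE 0.72, adjusted p = 0.0086), Cntnap1, a paranodal adhesion protein of axons, at 2.42 (SE 0.72, adjusted p = 0.033) and the spectrin Sptbn1 at -1.47 (SE 0.25, adjusted p = 0.0014). In the young 0 were higher and 7 lower, led by the adhesion molecule L1cam (-7.24, adjusted p = 8.2e-06). Of 8 sodium channel binding proteins, 1 was higher and 1 lower in the old: Fgf12, an intracellular fibroblast growth factor homologue that binds the channel's tail, had 9711 to 19465 normalized reads in old macrophages and 237 to 712 in old nonmacrophages (4.99, SE 0.56, adjusted p = 6.2e-05), and Nedd4, a ubiquitin ligase, was lower (-1.38, SE 0.25, adjusted p = 0.0020). In the young, 2 were higher and 3 lower, with Fgf12 at 4.62 (adjusted p = 0.00020). Fgf12 had 1.53 normalized reads, 1 read, in each of the lateral wall libraries.

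Of 15 calcium channel partners at the active zone and ribbon, 3 were higher and 0 lower in old macrophages, among them Cabp1, a calcium-binding modulator of L-type channels, at 4.45 (SE 0.64, adjusted p = 0.00040) and Pclo, an active zone scaffold, at 2.00 (SE 0.62, adjusted p = 0.040). Of 8 calcium channel modulators, 0 were higher and 1 lower: Rem1, a small GTPase that inhibits the channels through their beta subunits (-3.08, SE 0.55, adjusted p = 0.0018). Among 10 calcium release and store-operated channels the smallest adjusted p in the old was 0.13, for the store-operated channel Orai2 (1.10, SE 0.47) and the release channel Itpr1 (-0.89, SE 0.38). Of 10 other voltage-sensitive cation channels, the 1 called was Hvcn1, the proton channel of phagocytes, higher in old macrophages (1.97, SE 0.41, adjusted p = 0.0052). Median log2 differences of these 6 lists in the old were 0.48, -0.85, 1.05, 0.10, -0.09 and 1.62 in the order given, against -0.19 over all genes. Between ages in macrophages, Nalcn, a leak channel of neurons, rose by 9.41 on the log2 scale (adjusted p = 3.1e-07), and 8 of the 15 anchoring genes and 6 of the 15 active zone partners rose, with 0 and 1 lower, where 24.1% of all genes rose and 5.57% fell.

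The remaining members were low. Cacna1b, Cacna1e, Cacna1h, Cacng7 and Cacng8 had group means of at most 63.4 normalized reads in every whole-cochlea group, and Cacng7 and Cacng8 stayed at or below 13.4 and 2.30 in all 19 libraries. Such levels rest on few reads, since 3 reads are worth 1.38 to 5.33 normalized reads. Scn2a, a pore of unmyelinated axons, had 41.1, 49.0, 92.6 and 174 in old macrophages and 62.7, 24.1, 41.7 and 51.0 in old nonmacrophages, overlapping (adjusted p = 0.69). Scn9a, the pore of peripheral sensory neurons, had 102, 62.6, 118 and 305 against 41.8, 22, 37.8 and 47.7, without overlap but with an adjusted p of 0.44.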

How the data were processed

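The 33 members and the gene lists were chosen with earlier results of these data known. Some members and list genes are counted but not reported here by name or plotted. The 19 libraries were grouped by the labels' titles. Values in the deposited table are a signal, read counts that had been divided by a factor for each library; library names are per the file headers. The submitters' processing notes name TopHat2, Partek, DESeq2 and mm10 without versions. Per the labels' protocols, RNA of low quality was not sequenced, and some samples, not named, were run on the sequencer again. Nothing in the labels says how strand or annotation entered the counting.

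The spacing of low values gave back the reads: 100.0% of values under 10000 reads, and 99.89% of all above 0, were whole within 0.1 read. The main test was limma 3.58.1 (trend and robust) in R 4.3.3 on log2(value + 1), fitting 4 group means to 14 libraries of sorted whole cochlea. Genes entered with 1 normalized read or more in 2 libraries or more. It gave 5 contrasts with Benjamini-Hochberg adjustment over all genes tested at 0.05, two-sided, and was tested on simulated data. A difference on this scale understates the change of low genes. edgeR 4.0.16 (quasi-likelihood) and DESeq2 1.42.0 were run on the recovered reads as alternatives; among all genes edgeR called 1819 higher and 1270 lower between the old sorts, 1629 and 3444 between the young sorts, 2976 and 885 between ages in macrophages, 3 and 0 in nonmacrophages, and 1534 and 119 for the interaction. Each sample was 1 isolate from 1 mouse, so p-values measure the spread between these samples. Single libraries were compared by exact 95% intervals of read ratios, which, like floors of 3 reads per library, cover counting error only. The reads carry no molecular identifiers. Unadjusted counts were taken for the members only. No counts over all genes are given here for DESeq2, library weights or the young libraries alone. The same holds for pooled, substituted and left-out libraries. Those member counts thus have no share over all genes beside them. The other alternatives were quantile normalization, a common total, pseudocounts of 0.1 and 10, no filter or a filter of 10, the groups compared alone, library weights, no trend, thinning to a common depth, pooling or substituting the auditory nerve and lateral wall libraries, young nonmacrophage library 14 alone, and leaving out each library. Bounds against 3 reads were recomputed without each library after seeing the data.

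For each comparison the members described with values were those called and the uncalled ones with a mean of at least 100 in either group; from the other lists, the 3 genes of smallest adjusted p could be named. Gene positions and exon lengths came from GENCODE for mm10, and promoters from RefSeq. Osteoblast, endothelial, pericyte, melanocyte and skeletal muscle markers were measured as well and are given with the other observations.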

Additional observations from a re-analysis of the deposited data

Results flagged for a closer look

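In groups of 4 libraries, 4 members had 1 library far above the other 3; chance alone flags about 1 in 20 groups, and the 33 members gave many groups. Scn8a had 2284.93 normalized reads in old macrophage library 7, with the other 3 between 1535 and 1644. Cacnb2 had 1082.19 in old macrophage library 1, with the others between 625 and 658. Scn3b had 227.799 in old nonmacrophage library 11, with the others between 121 and 132, and Cacnb3 had 421.374 in old nonmacrophage library 19, with the others between 322 and 333.

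The sort difference differed between the old and the young cochlea in 3 members, by the interaction term of the limma fit. In all 3 the macrophage sort was lower at both ages, and by less in the old. The interaction was 5.09 on the log2 scale for Scn7a (adjusted p = 0.0011), 5.57 for Scn3b (adjusted p = 0.021) and 5.15 for Cacna2d2 (adjusted p = 0.022).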

How the results depend on the processing

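The counts of called members were 10, 14, 14, 1 and 3 for the sorts in the old, the sorts in the young, age in macrophages, age in nonmacrophages and the interaction. In the old sort comparison they were 16 with quantile normalization, 24 with only the groups compared, 26 with library weights and 4 with the auditory nerve and lateral wall pooled in; in the young, 3 with only the groups compared and 1 with library weights. For age in macrophages they were 4 with quantile normalization, 0 with library weights, and 22 with the auditory nerve and lateral wall libraries as the young macrophages. For age in nonmacrophages they were 0 in edgeR, 4 in DESeq2 and 0 against library 14 alone. For the interaction they were 0 with quantile normalization or library weights, 5 with a pseudocount of 0.1, a filter of 10, no trend or thinning, 6 in edgeR, 8 with a common total, 15 in DESeq2, and 14 with the auditory nerve and lateral wall libraries as the young macrophages. The other settings stayed within 1.5 times the counts given, and the cause of these shifts was not tested. Calls over all genes moved as well. Between the old sorts, quantile normalization called 2397 genes higher and 2385 lower, against 1705 and 1726 in the main fit. The old libraries alone called 24.9% higher and 33.4% lower. For most other settings no counts over all genes are given here, so their member counts have no share beside them. With the auditory nerve and lateral wall libraries as the young macrophages, the young sort difference changed sign for Scn1a (-1.84), Scn4b (-2.79), Cacna2d3 (-2.42) and Cacng2 (-0.53). The nonmacrophages in that setting were still those of whole cochlea, so tissue and sort cannot be told apart in it. Leaving out each library gave 8 to 13, 11 to 14, 10 to 16, 1 to 5 and 2 to 9 calls in the order of the first sentence. Library weights put each young macrophage library at 0.067, and only 2 such libraries were analysed, which limits every comparison that uses them. The substitution of substructure libraries and the use of library 14 alone were chosen after seeing the data. No paired analysis was made. Each library number in the labels is used once, so the numbers do not show which libraries, if any, came from the same mouse.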

Other observations

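Markers of other cochlear cells were measured in the same libraries; over all genes 9.25% were higher and 9.36% lower between the old sorts, and 24.1% rose and 5.57% fell with age in macrophages. In the old cochlea, 6 of 8 osteoblast and bone matrix markers, 6 of 10 endothelial markers and 5 of 10 pericyte and smooth muscle markers were lower in macrophages and none was higher, with median log2 differences of -3.98, -2.40 and -3.12. Of 8 melanocyte and strial markers 2 were lower and 1 higher, and of 11 skeletal muscle markers tested 2 were lower and 1 higher. The skeletal muscle markers summed to 252 to 371 normalized reads in old macrophages and 364 to 480 in old nonmacrophages, beside which Cacna1s, the skeletal muscle pore, had 19.8 to 46.8 and 1.11 to 7.57. Bone matrix collagen Col1a1 differed by -4.61 (SE 0.64), the endothelial sialomucin Emcn by -3.15 (SE 0.29) and the pericyte potassium channel subunit Abcc9 by -2.79 (SE 0.38). Of 12 hair cell markers 5 were lower and 0 higher. Between ages in macrophages, 5 of 10 endothelial and 4 of 10 pericyte markers fell and 0 rose, whereas 2 of 8 osteoblast, 3 of 11 skeletal muscle and 1 of 8 melanocyte markers rose and 0 fell; 14 of the 33 channel genes rose. Their part in the channel levels was not tested.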
